A study of Mus musculus with 18 samples.

Results

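Polycomb complex genes encode the proteins that write and read repressive chromatin marks, and 9 of them were followed here across mouse embryonic fibroblast (MEF) lines in which a chromatin effector was induced: Ezh1, Ezh2, Eed, Suz12, Cbx2, Cbx7, Cbx8, Rnf2 and Bmi1. They were chosen by name and are 9 of the 47937 gene identifiers in the count table. All 9 passed the filter on low counts that left 16216 genes for testing. The study built MEF lines that express, on addition of doxycycline, a catalytically dead Cas9 (dCas9) aimed at the major satellite repeats (MSR) of mouse pericentromeric heterochromatin. The dCas9 was supplied as dCas9-control, as the transcriptional repressor dCas9-KM or as the transcriptional activator dCas9-VPR, and total RNA was sequenced after depletion of ribosomal RNA. Each line was sampled untreated and induced, with 3 libraries in each of the 6 groups.

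Induced cells of the dCas9-control line received 10 ng/ml doxycycline for 24 h. Induced cells of the repressor line received 100 ng/ml for 24 h, and those of the activator line 10 ng/ml for 6 h. All 3 lines grew in the same medium with tetracycline-free serum and hygromycin, so the selection agent was common to every group. No group received dCas9-control for 6 h or at 100 ng/ml, so dose and duration of induction cannot be told apart from the effector in comparisons between lines. Nothing in the labels says whether a line is 1 clone or whether the numbered replicates of a group came from separate cultures. The p-values are thus relative to the scatter of the sequenced libraries, and that scatter could be purely technical.

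Polycomb proteins act in a pair of complexes. Polycomb repressive complex 2 (PRC2) methylates histone H3 on lysine 27: EZH2 and its paralogue EZH1 are alternative catalytic subunits, SUZ12 is the scaffold, and EED binds the methylated product and stimulates the enzyme. Polycomb repressive complex 1 (PRC1) ubiquitinates histone H2A: RNF2 (RING1B) is an E3 ligase, BMI1 (PCGF4) is its partner subunit, and CBX2, CBX7 and CBX8 are alternative chromodomain subunits that read methylated lysine 27 in canonical PRC1. In fibroblasts Polycomb is best known for holding down the Cdkn2a and Cdkn2b locus, which encodes cell cycle inhibitors, and for keeping developmental regulators of other lineages silent.

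The libraries held between 14928765 and 25262912 gene counts. Fibroblast markers summed to between 18500 and 23700 CPM, the counts of a gene scaled to a common library size, in every library, with 18500 to 18800 in the induced repressor group, 23200 to 23700 in the induced activator group and 20500 to 22100 in the others. Of the 10 markers 8 stood at 1 CPM or more in every group, although Thy1 was at 0 in 5 of the 6 groups. The sum hides a split on induction of the activator, where 6 of the 8 tested markers were higher and 2 lower. Among all tested genes 38.2% were higher and 37.2% lower. The lower markers were Pdgfra (70.3 to 31.6 CPM) and Pdgfrb (124 to 55.9 CPM). The 3 induced activator libraries stood apart from the other 15 on the first principal component, which held 78.4% of the variance of log2 CPM. They also held more genes with a count, 22641 to 23420 against 20107 to 21331. In CPM with TMM library sizes, 22 genes of the G1/S transition summed to 3900 to 4150 there against 2990 to 3130 elsewhere. Of 4 endothelial markers only Pecam1 was above 1 CPM there (21.3 against 0.274 in the uninduced line). The part of these differences in the results was not tested.

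Per kilobase of exon, Suz12 was the most abundant of the 9 genes, with a median over the 18 libraries of 116.7 TPM, the share of a gene among all transcripts after division by length. Bmi1 followed at 95.44, Ezh2 at 52.5, Rnf2 at 50.56 and Eed at 39.96 TPM. Cbx2 stood at 22.56, Cbx8 at 8.662, Ezh1 at 6.037 and Cbx7 at 2.091 TPM. With the length of the longest transcript in place of the union of exons, Ezh2 passed Bmi1, Eed passed Rnf2 and Ezh1 passed Cbx8, and Suz12 stayed first and Cbx7 last. The low genes rest on few reads: 1361 counts for Cbx7 in all libraries together, 3199 for Cbx8 and 4303 for Ezh1, against 60527 for Suz12.

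The genes lie on GRCm38 as follows, with their GENCODE M21 annotation. Ezh1 (ENSMUSG00000006920.14) spans chr11:101191115-101226463 on the minus strand and Suz12 (ENSMUSG00000017548.15) chr11:79993106-80034123 on the plus strand. Ezh2 (ENSMUSG00000029687.16) spans chr6:47530139-47595341 and Eed (ENSMUSG00000030619.9) chr7:89954654-89980983, both on the minus strand. Cbx2 (ENSMUSG00000025577.7, chr11:119022962-119031270, plus strand) and Cbx8 (ENSMUSG00000025578.9, chr11:119036305-119040969, minus strand) are neighbours separated by 5034 bp. Cbx7 (ENSMUSG00000053411.16) spans chr15:79915807-79971119 and Rnf2 (ENSMUSG00000026484.13) chr1:151458004-151500955, both on the minus strand, and Bmi1 (ENSMUSG00000026739.13) spans chr2:18677018-18686629 on the plus strand.

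Outside the induced activator libraries the 9 genes varied little in CPM with TMM library sizes. Between the lowest and the highest of the other 5 group means, Ezh1, Ezh2, Eed and Suz12 differed 1.06-fold to 1.07-fold, Rnf2 1.11-fold, Bmi1 1.13-fold and Cbx2 1.15-fold. Cbx8 differed 1.33-fold and Cbx7, the least abundant, 1.51-fold. In the order of the 6 group means, the induced activator group was lowest for Ezh1, Eed, Cbx2, Cbx7 and Cbx8, and each time its libraries lay wholly below those of the next group. It was highest for Ezh2 and Suz12, and only for Ezh2 did its libraries not overlap the next group. That order holds for TMM scaling only. In TPM, which scales to the whole library, the induced activator group was lowest for all 9 genes, at 43.39 TPM for Ezh2 and 93.45 TPM for Suz12. In the middle of the order neighbouring groups mostly overlapped. The exceptions were Cbx2 (uninduced repressor above induced control), Cbx7 (induced repressor above uninduced repressor), Cbx8 (induced above uninduced repressor, and uninduced control above uninduced activator) and Bmi1 (induced control above induced repressor).

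**Figure D1:**
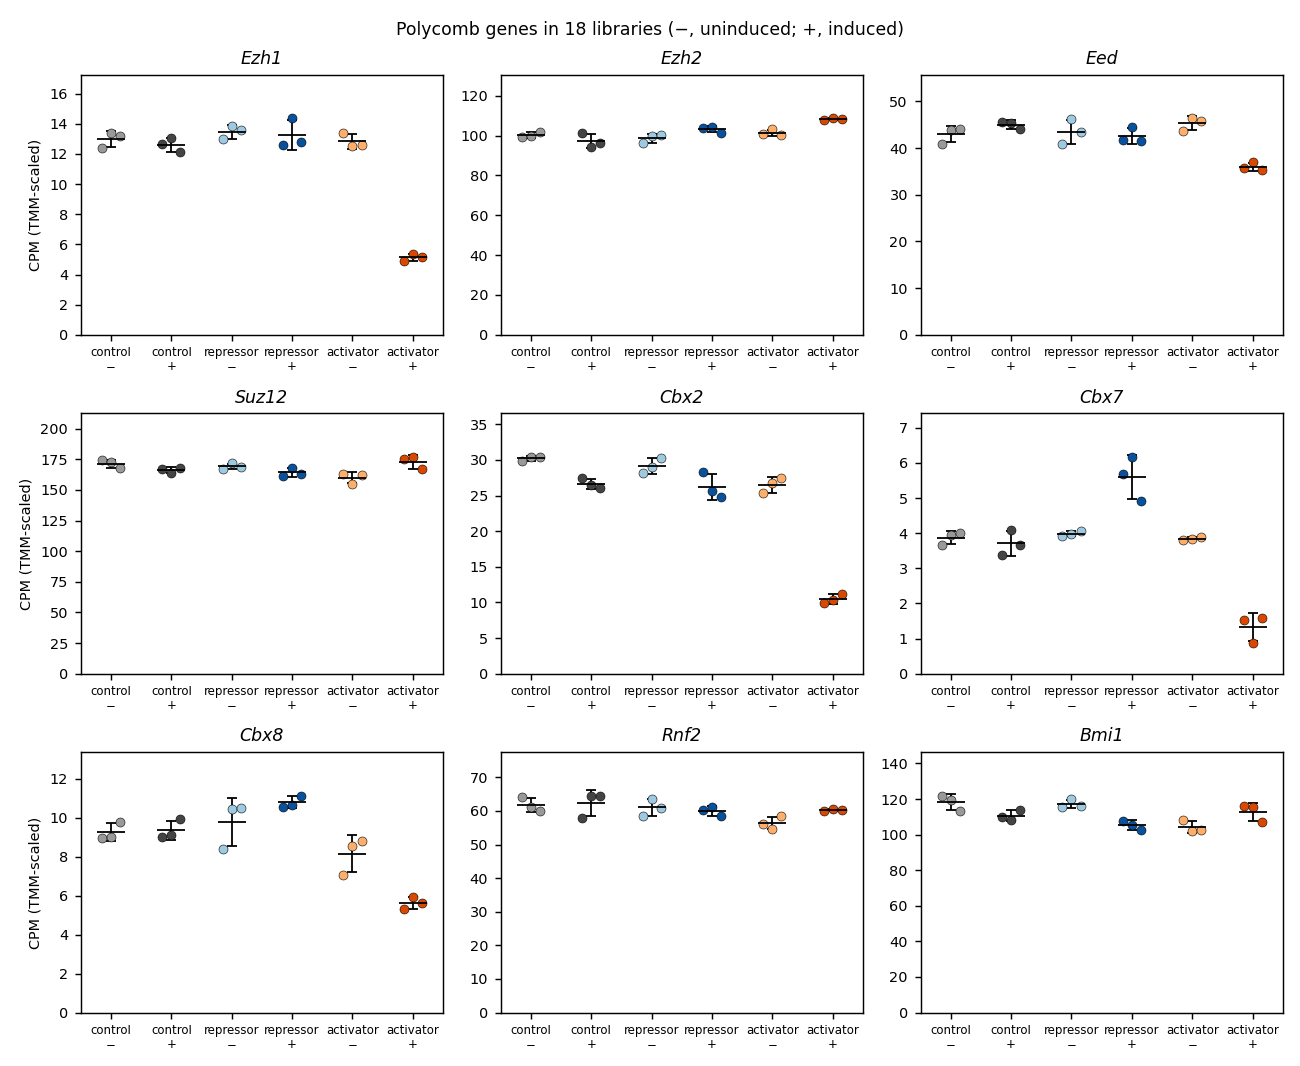
CPM with TMM library sizes of the 9 Polycomb complex genes (1 panel a gene, vertical axis in CPM) in the 6 groups, with 1 point per library, a bar at the group mean and whiskers of 1 SD. The induced activator libraries are the lowest of all for Ezh1 (4.896 to 5.338 CPM), Eed, Cbx2 and Cbx7, and they lie below every other library for Cbx8.

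The first comparison asked how Polycomb genes differed after induction of the activator. RNA of 5 of them fell: the catalytic subunit gene Ezh1, Eed and the chromodomain genes Cbx2, Cbx7 and Cbx8. Eed fell by 20.6%, Cbx8 fell by 30.2%, Ezh1 fell by 60.2%, Cbx2 fell by 60.3% and Cbx7 fell by 64.4%. The abundant genes Ezh2, Suz12, Rnf2 and Bmi1 were 6.79% to 8.04% higher under TMM scaling, but their direction turned when libraries were scaled by total counts or by mitochondrially encoded genes. All 9 thus passed an adjusted p of 0.05 (quasi-likelihood test of edgeR, Benjamini-Hochberg adjustment over all tested genes), in a comparison in which 75.3% of all tested genes did, 38.2% higher and 37.2% lower. Induced and uninduced libraries kept apart without overlap for 8 of the 9 genes and for 76.3% of all tested genes. Being called was therefore no distinction here. The median log2 change was -0.332 over the 9 genes, which is the value of Eed alone, and 0.004 over all tested genes. In bulk RNA, fewer cells that express a gene and less of its RNA per cell cannot be told apart.

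Among the catalytic subunits of PRC2, the paralogues parted. Ezh1 stood at 13.42, 12.53 and 12.58 CPM in the uninduced activator libraries and at 4.896, 5.338 and 5.165 CPM in the induced ones, from 89, 80 and 101 counts. The groups were far apart and the replicates close. The fall was -1.33 on the log2 scale (SE 0.10, 95% interval -1.52 to -1.13, adjusted p = 1.01e-21, edgeR). Ezh2 went from 100.7, 103.3 and 100.3 CPM to 107.9, 108.9 and 108.4 CPM. The groups did not overlap, but the difference was 0.09 (SE 0.03, adjusted p = 0.00791, edgeR) and became -0.13 with total-count scaling and -0.64 with mitochondrial scaling. Ezh2 shares 5039 bp with Gm26625 on the opposite strand, which rose by a fitted 9.04 on the log2 scale (SE 0.6, edgeR). Gm26625 held only 175 counts in all libraries, against 36653 for Ezh2, so the size of that rise is poorly measured. The part of Gm26625 in the Ezh2 value was not tested. Because the ratio of 2 genes within a library needs no scaling of libraries, the parting of the paralogues can also be read from it. Per kilobase, Ezh2 RNA was 8.03 to 9.18 times Ezh1 RNA in the 15 other libraries and 24.5, 22.7 and 23.4 times in the induced activator libraries. These sizes use the union of exons as the length. Another definition of length would multiply the ratio by the same factor in every library.

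Of the non-catalytic core of PRC2, the scaffold gene Suz12 stood at 162.7, 155 and 162.3 CPM before and 174.9, 177.1 and 166.8 CPM after induction of the activator. The groups did not overlap, by a narrow margin, and the log2 difference was 0.11 (SE 0.03, adjusted p = 0.000715, edgeR), turning to -0.11 with total-count and -0.63 with mitochondrial scaling. Eed, whose product reads the mark, fell from 43.63, 46.46 and 45.88 CPM to 35.64, 36.97 and 35.39 CPM. Every induced library lay below every uninduced one, with a log2 change of -0.33 (SE 0.05, adjusted p = 4.52e-09, edgeR). Eed shares 261 bp with E230029C05Rik on the opposite strand, which rose by 0.66 (adjusted p = 0.0437, edgeR). It shares 408 bp with Gm45120 on its own strand, at -0.78 and not called (adjusted p = 0.109, edgeR). They held 295 and 160 counts in all libraries against 15484 for Eed, and their part in the Eed value was not tested. The subunits that PRC2 cannot do without thus had RNA levels that differed in direction under TMM scaling, with Eed lower under every scaling tried.

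The chromodomain genes of canonical PRC1 fell to different extents. Cbx2 was at 25.34, 26.77 and 27.53 CPM in the uninduced activator line and at 9.901, 10.34 and 11.2 CPM after induction, a log2 change of -1.33 (SE 0.07, adjusted p = 4.73e-30, edgeR). Cbx8, its neighbour on chromosome 11, went from 7.054, 8.563 and 8.811 CPM to 5.336, 5.939 and 5.625 CPM. Its fall was smaller, -0.52 (SE 0.11, adjusted p = 2.31e-05, edgeR), and the groups did not overlap. Within libraries Cbx8 RNA per kilobase was 0.322, 0.371 and 0.371 times Cbx2 RNA before induction and 0.624, 0.665 and 0.582 times after it. The neighbours were therefore lowered unequally, as no scaling changes this ratio.

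Cbx7 fell with the fewest reads of the 9 genes. It stood at 3.795, 3.847 and 3.889 CPM before and 1.54, 0.8675 and 1.585 CPM after induction, from 99, 93 and 64 against 28, 13 and 31 counts. The groups did not overlap, and the log2 change was -1.49 with a wide 95% interval of -1.85 to -1.12 (adjusted p = 1.25e-11, edgeR). Without induced library 2, which held 13 counts, it was -1.29, so the order of Cbx7, Ezh1 and Cbx2 by size of change rests on that library. Cbx7 and Apobec3 share 100 bp on opposite strands, and the strand setting of the counting is not given in the sources used here. Apobec3, with 13588 counts in all, fell by 0.73 in the same comparison, and its part in the Cbx7 value was not tested.

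The core of PRC1 changed little. Rnf2, the ligase gene, was at 56.09, 54.69 and 58.46 CPM before and 59.9, 60.46 and 60.34 CPM after induction of the activator, and Bmi1 at 108, 102 and 102.5 CPM before and 116.1, 115.4 and 107 CPM after. The Rnf2 groups did not overlap and the Bmi1 groups did. The log2 differences were 0.10 for Rnf2 (adjusted p = 0.0311, edgeR) and 0.11 for Bmi1 (adjusted p = 0.00306), with total-count scaling turning them to -0.12 and -0.11 and mitochondrial scaling to -0.64 and -0.63. The Rnf2 call was lost when activator uninduced library 1 or 2 or activator induced library 2 or 3 was left out (adjusted p = 0.0602 to 0.141, edgeR), when only the groups compared were fitted (0.076) and with no filter on low counts (0.273). Rnf2 shares 158 bp with Trmt1l on the opposite strand, which fell by 0.38, and 3029 bp with Gm36527 on its own strand, which fell by 0.72. Their part in the Rnf2 value was not tested. The ratio of Bmi1 to Rnf2 RNA per kilobase was 1.92 ± 0.092 (SD, n = 3) before and 1.94 ± 0.091 (SD, n = 3) after induction, which is within the spread between replicates.

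**Figure D2:**
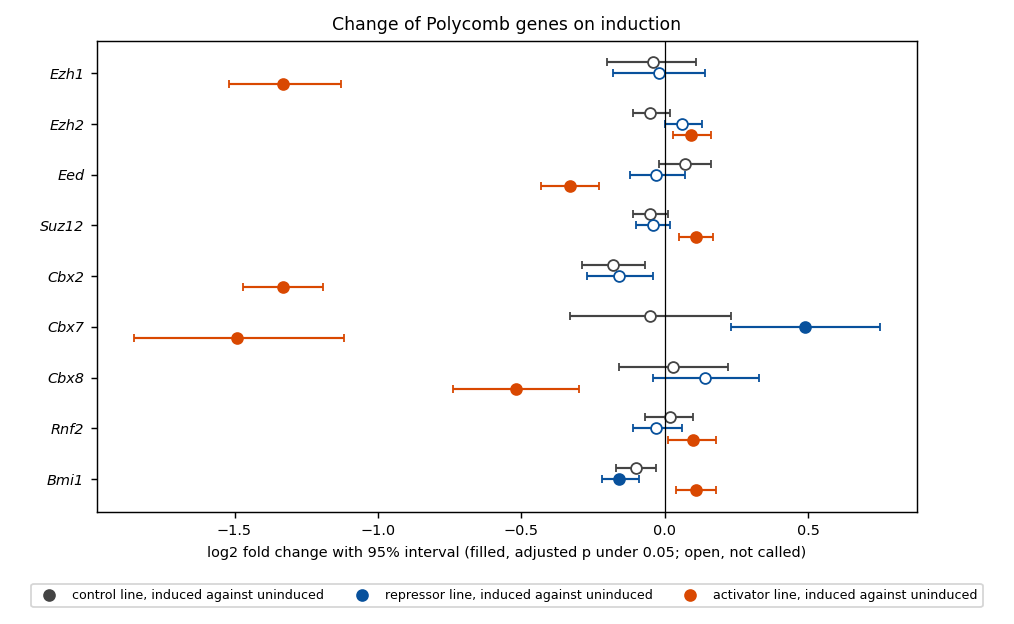
Log2 fold change of each Polycomb complex gene, induced against uninduced, in the control, repressor and activator lines, with 95% intervals from the edgeR fit under TMM scaling. Filled points passed an adjusted p of 0.05: 9 genes in the activator line, of which the 4 just right of zero turn to the left under total-count or mitochondrial scaling, Cbx7 and Bmi1 in the repressor line, and none in the control line.

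**Figure D3:**
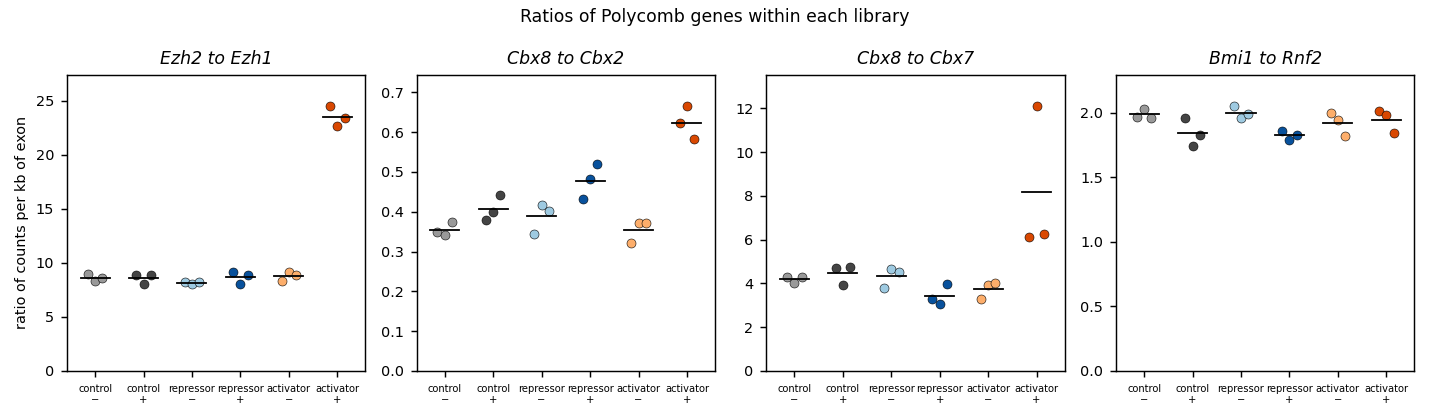
Ratios of RNA per kilobase between Polycomb genes within each library, by group, with 1 point per library on a linear axis. Ezh2 to Ezh1 lies at 22.7 to 24.5 after induction of the activator and at 8.03 to 9.18 in all other libraries, Cbx8 to Cbx2 is raised there, and Bmi1 to Rnf2 is level.

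How libraries are scaled matters for the 4 genes that moved little. The median log2 change of all tested genes was 0.108 with upper-quartile, 0.047 with median-ratio, 0.004 with TMM, -0.219 with total-count and -0.735 with mitochondrial scaling, and of the genes called, 50.7% were higher with TMM against 32.8% with total counts and 9.78% with mitochondrial genes. A change of scaling shifts all genes by nearly the same amount, so the distance of a gene from that median is set by construction and is no sign of stability. On that measure Ezh2 lay 0.09 above the median, Suz12 and Bmi1 0.10 to 0.11 and Rnf2 0.09 to 0.10, whereas Ezh1 and Cbx2 lay -1.34 to -1.33 from it, Cbx7 -1.5 to -1.49, Cbx8 -0.53 to -0.52 and Eed -0.34 to -0.33. The falls of Ezh1, Eed, Cbx2, Cbx7 and Cbx8 held under all 18 alternatives run for this comparison. Whether total RNA per cell changed was not tested.

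**Figure D4:**
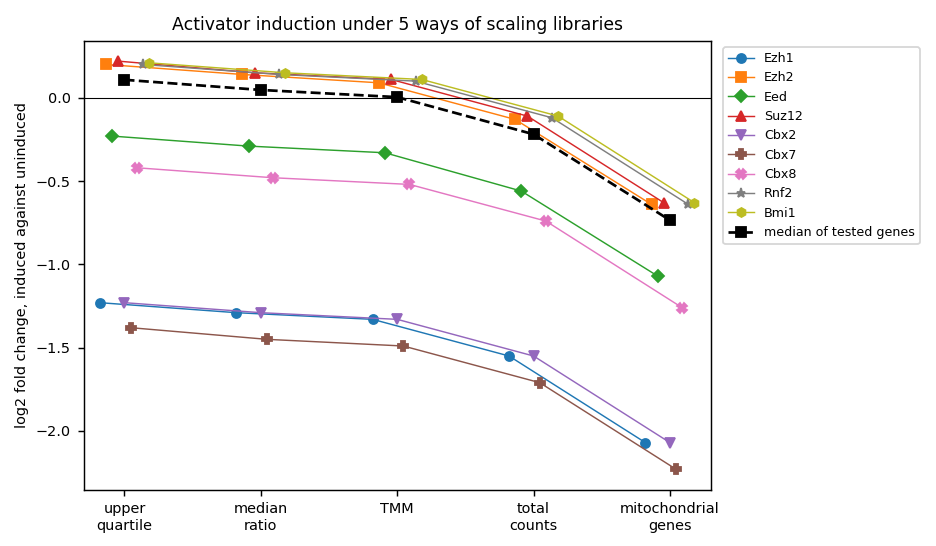
Log2 fold change of the 9 Polycomb genes in the activator induction (vertical axis) under 5 ways of scaling libraries (horizontal axis), with the median of all tested genes as a dashed line; points are shifted sideways so that none hides another. Ezh2, Suz12, Rnf2 and Bmi1 stay just above the median and cross zero with it, and Ezh1, Cbx2 and Cbx7 stay more than 1 log2 unit below it.

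The promoter sequences of these genes are shown for the members that carry the contrast: the paralogues Ezh1 and Ezh2, which parted, Cbx8, which fell, and Suz12, whose direction turned with the scaling. They are the 250 bases before the RefSeq start of the gene, read 5′ to 3′ on the gene's strand, from RefSeq on GRCm38.p6, at chr11:101226464-101226713 (Ezh1, minus strand), chr6:47595031-47595280 (Ezh2, minus strand), chr11:119040914-119041163 (Cbx8, minus strand) and chr11:79992856-79993105 (Suz12, plus strand). The RefSeq start coincides with the 5′ end of the GENCODE gene for Ezh1 and Suz12, and lies 311 bp inside the GENCODE gene for Ezh2 and 56 bp inside it for Cbx8, so the Ezh2 window falls within the span given above. Capitals mark the CCAAT word on either strand (CCAAT or ATTGG) and, in Suz12, the E2F word TTTCCCGC.
Ezh1: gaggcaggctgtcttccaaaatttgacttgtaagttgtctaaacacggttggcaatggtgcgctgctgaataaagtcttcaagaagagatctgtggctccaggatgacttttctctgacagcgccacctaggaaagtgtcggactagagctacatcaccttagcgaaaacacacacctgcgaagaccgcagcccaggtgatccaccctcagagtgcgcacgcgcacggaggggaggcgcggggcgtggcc
Ezh2: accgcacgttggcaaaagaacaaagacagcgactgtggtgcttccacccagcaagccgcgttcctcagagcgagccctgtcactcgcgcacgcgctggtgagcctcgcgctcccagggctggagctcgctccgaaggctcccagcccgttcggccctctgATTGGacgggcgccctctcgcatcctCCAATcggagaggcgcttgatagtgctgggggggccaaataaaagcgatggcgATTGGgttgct
Cbx8: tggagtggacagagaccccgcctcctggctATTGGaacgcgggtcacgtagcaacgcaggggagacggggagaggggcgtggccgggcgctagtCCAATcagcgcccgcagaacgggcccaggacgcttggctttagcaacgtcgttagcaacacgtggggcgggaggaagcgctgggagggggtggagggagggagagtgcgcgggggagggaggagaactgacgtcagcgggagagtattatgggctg
Suz12: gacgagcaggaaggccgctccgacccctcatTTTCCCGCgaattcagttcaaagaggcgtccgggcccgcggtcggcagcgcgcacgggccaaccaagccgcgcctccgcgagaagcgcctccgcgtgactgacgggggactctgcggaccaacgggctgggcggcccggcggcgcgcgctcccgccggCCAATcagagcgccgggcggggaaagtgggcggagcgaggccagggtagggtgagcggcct

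Of the 9 genes 8 had an entry in the RefSeq table, Cbx2 being the exception. For Cbx7 the RefSeq start lies 38473 bp inside the GENCODE gene, so its window belongs to a start inside the span given above. CCAAT words lay in 4 of the 8 promoters, those of Ezh2 (3 words), Cbx8 (2), Suz12 (1) and Cbx7 (1), against 33.85% of all 32851 promoters of this length. Of those 4 genes, Cbx7 and Cbx8 fell in the activator induction under every scaling and Ezh2 and Suz12 only under total-count and mitochondrial scaling, so genes of both kinds held the word. An E2F word (TTTCCCGC, TTTGGCGC, TTTCGCGC or TTTGCCGC, either strand) lay in Suz12 alone, against 1.86% of all promoters. The ETS word CCGGAAGT, searched on both strands, lay in none of the 8 windows, against 2.88% of all promoters. The 8 promoters held 12 to 37 CpG dinucleotides, with 14 in Ezh1, 23 in Ezh2, 22 in Cbx8 and 37 in Suz12, against a median of 6. A match to a word is a description of the letters, not of a factor's binding.

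The second comparison asked the same of the repressor line. Of the 9 genes, Cbx7 rose and Bmi1 fell, and 7 did not pass the test. In this comparison 9.81% of all tested genes were called, 5.21% higher and 4.59% lower, and the groups did not overlap for 26.7%. Cbx7 stood at 3.918, 3.981 and 4.073 CPM in the uninduced and 5.675, 6.176 and 4.93 CPM in the induced repressor libraries. All 3 induced libraries were above all 3 uninduced ones, with a log2 change of 0.49 (SE 0.13, 95% interval 0.23 to 0.75, adjusted p = 0.00714, edgeR). Without induced library 2, which held the highest value, the change was 0.40 and was not called (adjusted p = 0.1, edgeR). The overlapping gene Apobec3 differed by 0.14 (adjusted p = 0.0586, edgeR). In the same comparison 7 of 8 tested fibroblast markers were lower, by 0.10 to 0.36 on the log2 scale, and the muscle marker Des was higher, at 2.562 against 1.191 CPM. The other listed muscle markers, Myod1, Myog and Myf5, were at 0 CPM in both repressor groups. The part of these marker differences in the values of Cbx7 and of Bmi1, below, was not tested.

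Bmi1 went from 115.5, 119.9 and 116.3 CPM to 107.9, 105.5 and 102.7 CPM in the repressor line. The groups did not overlap, and the log2 change was -0.16 (SE 0.03, adjusted p = 0.000814, edgeR), which under mitochondrial scaling was -0.17 and not called (adjusted p = 0.0543). Cbx2 was at 28.11, 29.03 and 30.3 CPM before and 28.26, 25.65 and 24.76 CPM after induction. The ranges overlapped through induced library 1, and the log2 difference of -0.16 was not called (adjusted p = 0.0738, edgeR), while without that library it was -0.21 and was called (adjusted p = 0.0279). The PRC2 core did not pass the test: log2 differences were 0.06 for Ezh2, -0.04 for Suz12, -0.03 for Eed and -0.02 for Ezh1, with adjusted p of 0.274 to 0.937 (edgeR). Cbx8 at 0.14 and Rnf2 at -0.03 were not called either. Per kilobase Cbx8 RNA was 0.388 ± 0.038 (SD, n = 3) times Cbx2 RNA before and 0.478 ± 0.044 (SD, n = 3) times after induction. Bmi1 was 2 ± 0.046 (SD, n = 3) times Rnf2 before and 1.83 ± 0.035 (SD, n = 3) times after. The dCas9-control line moved the same way. There Bmi1 to Rnf2 was 1.99 ± 0.038 before and 1.84 ± 0.11 after induction (SD, n = 3 each). Cbx8 to Cbx2 was 0.355 ± 0.016 before and 0.407 ± 0.031 after induction in that line (SD, n = 3 each).

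In the dCas9-control line, none of the 9 genes passed the test, and 0.463% of all tested genes did. Cbx2 and Bmi1 had an unadjusted p under 0.05 with edgeR, and DESeq2 and limma-voom also called 0 of the 9. Cbx2 stood at 29.82, 30.45 and 30.37 CPM before and 27.44, 26.54 and 26.02 CPM after induction. The groups did not overlap, as was so for 15.5% of tested genes, and the log2 difference was -0.18 (95% interval -0.29 to -0.07, adjusted p = 0.123, edgeR). Bmi1 differed by -0.10 (adjusted p = 0.205, edgeR), from 121.9, 119.6 and 113.3 CPM to 109.8, 108.3 and 113.9 CPM, with overlapping ranges. Cbx2 and Bmi1 values thus lay on the same side as in the repressor line, with differences that did not pass the adjusted threshold.

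Whether the lines responded differently was tested directly. The activator response differed from the control response for 8 of the 9 genes, against 63.7% of all tested genes (30.8% higher and 33% lower). The differences were -1.28 for Ezh1, -1.15 for Cbx2, -1.44 for Cbx7, -0.55 for Cbx8 and -0.40 for Eed on the log2 scale (adjusted p = 1.35e-19 to 0.000768, edgeR). Bmi1 differed by 0.21, Suz12 by 0.16 and Ezh2 by 0.14 under TMM scaling, all negative with total-count and mitochondrial scaling, and Rnf2 at 0.08 was not called (adjusted p = 0.212, edgeR). With median-ratio and upper-quartile scaling Rnf2 was called higher, at 0.13 and 0.19 (0.0453 and 0.00434). The repressor response did not pass the test against the control response for any of the 9 genes, where 2.73% of all tested genes did. The Cbx7 difference was 0.54 with a 95% interval of 0.16 to 0.92 (adjusted p = 0.137, edgeR) and the Bmi1 difference -0.06 with an interval of -0.15 to 0.04. The activator and repressor responses, a comparison added after the data were seen, differed for 7 of the 9 genes, against 63.5% of tested genes (30.9% higher and 32.5% lower). The largest was Cbx7 at -1.98 (adjusted p = 1.78e-12, edgeR), and Ezh2 at 0.03 and Rnf2 at 0.13 were not called, although Rnf2 was called higher in 7 of 24 alternatives (adjusted p = 0.000373 to 0.0471), among them those without repressor uninduced library 1 (0.035) or activator uninduced library 3 (0.043). These comparisons share libraries with the inductions above and are not independent of them.

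The lines were not alike before induction. The uninduced activator line was below the uninduced control line for Suz12 (-0.10 on the log2 scale), Cbx2 (-0.19), Rnf2 (-0.14) and Bmi1 (-0.18), with adjusted p of 1.51e-05 to 0.00996 (edgeR), against 19.5% of all tested genes called and 10.5% lower. Bmi1 means were 104.2 ± 3.32 CPM in the activator line and 118.2 ± 4.45 CPM in the control line (SD, n = 3 each). The Suz12 and Rnf2 calls were lost without control uninduced library 1 (adjusted p = 0.0554 and 0.112, edgeR) or activator uninduced library 2 (0.106 and 0.0824), and the Cbx2 call without activator uninduced library 1 (0.0827). Against the uninduced repressor line, Suz12, Cbx8, Rnf2 and Bmi1 were lower, by 0.08, 0.28, 0.12 and 0.17 (adjusted p = 0.0413, 0.0258, 0.0278 and 5.9e-05, edgeR), where 21.1% of tested genes were called and 11.4% were lower. Of 17 alternatives the call was lost in 8 for Suz12 (adjusted p = 0.0502 to 0.27), in 7 for Rnf2 (0.0553 to 0.235) and in 4 for Cbx8 (0.0762 to 0.298), whose libraries overlap, and in none for Bmi1. The Suz12 call was among those lost when any one of repressor uninduced libraries 1, 2 and 3 or activator uninduced library 2 was left out, the Rnf2 call without repressor uninduced 2 or 3 or activator uninduced 1 or 2, and the Cbx8 call without repressor uninduced 2 or 3 or activator uninduced 1. No member passed the test between the uninduced repressor and control lines (log2 differences of -0.05 to 0.09), where 1.56% of tested genes did. These comparisons use the same 3 uninduced activator libraries as the activator induction.

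Across libraries the genes fell into sets, mostly through the 3 induced activator libraries. Over all 18 libraries log2 CPM of Ezh1 and Cbx2 correlated with r = 0.98, and over the 15 without the induced activator with r = 0.096. The same values were 0.921 and 0.416 for Ezh1 and Cbx7, and 0.894 and -0.274 for Cbx2 and Cbx7. Suz12 and Bmi1 kept their relation, with r = 0.81 over 18 and 0.853 over 15 libraries, and Cbx2 with Bmi1 rose from -0.007 to 0.723. These are descriptions among 36 pairs of genes measured in the same libraries, with no test.

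The genes most alike in pattern over the 18 libraries show how common each pattern was. For Ezh1 they were Crebzf, Zfp36l2 and Arl4c (Pearson r of 0.992 each), and 2226 of 12407 protein-coding genes exceeded 0.9. For Cbx2 they were Inafm2, Fzd7 and Ldb1 (0.994 to 0.995), with 2184 genes over 0.9. For Cbx7 they included Foxf1 (0.979), with 1093 genes over 0.9. For Cbx8 they were Ncald, Gli2 and 2610008E11Rik (0.949 to 0.959), and for Eed B3galt6, Gtf2ird1 and Arhgap45 (0.94 to 0.956). Over 0.9 lay 428 genes for Cbx8 and 141 for Eed. Fewer genes exceeded 0.9 with the members that moved little. Ezh2 had 2 genes over 0.9, with Plk1 (0.923), Rbm12b1 (0.904, at a mean of only 0.457 CPM) and Rogdi (0.892) the most alike. Suz12, Rnf2 and Bmi1 had none. Their closest were Qk (0.886) for Suz12, Cog5 (0.822) for Rnf2 and Lrrc58 (0.885) for Bmi1.

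Other genes of the Polycomb system were examined by list in the activator induction. Of all tested genes in that comparison, 38.2% rose and 37.2% fell. Of 11 genes of PRC2 partners, 10 were tested, 4 rose, 3 fell and 3 were not called, with a median log2 change of 0.008. Jarid2, whose product recruits PRC2, fell from 19.69 ± 0.291 to 9.424 ± 0.969 CPM (SD, n = 3 each, log2 change -1.06). Rbbp4, a histone-binding subunit of PRC2 and of other complexes, rose from 228.5 ± 4.95 to 334 ± 19.7 CPM (0.55), and Epop, a PRC2 accessory gene, from 1.402 to 2.251 CPM (0.64), although with mitochondrial scaling Rbbp4 was lower, at -0.19, and Epop at -0.1 was not called (adjusted p = 0.674, edgeR). The Epop call was also lost with total-count scaling (0.42, adjusted p = 0.0895). Of 10 other genes of canonical PRC1, 9 were tested, 7 fell and 1 rose, with a median of -0.392. Pcgf2, a relative of Bmi1, went from 38.21 to 18.73 CPM (-1.01) and Cbx6 from 169.4 to 84.48 CPM. The gene that rose was Scml4, from 4 counts in the 3 uninduced to 905 in the 3 induced libraries (8.02 on the log2 scale), and it passed the filter on low counts through the induced group alone.

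Genes of variant PRC1, which contains no CBX subunit, fell in 11 and rose in 4 of 15 cases, with a median of -0.637. Bcor went from 49.23 to 20.65 CPM (-1.25), E2f6 from 29.37 to 15.37 CPM (-0.95) and Auts2 from 73 to 16 counts (-1.82). The PR-DUB genes, whose complex removes ubiquitin from histone H2A, had 9 of 10 tested, 7 lower and 2 higher, with a median of -0.442. Foxk1 changed by -1.19, Ogt by -1.11 and Asxl1 by -0.88. Of the demethylase genes that erase the PRC2 mark, Kdm6b fell from 92.27 ± 3.39 to 38.37 ± 2.88 CPM (-1.26, adjusted p = 8.73e-43, edgeR), whereas Kdm6a was 0.17 higher with TMM and -0.06 with total-count scaling. Trithorax and COMPASS genes encode opposing histone methyltransferases, among them those of lysine 4, and their partner subunits. Of 12 such genes 9 fell and 2 rose, with a median of -0.327. Setd1b changed by -1.25, Kmt2d from 565.4 to 267.8 CPM (-1.08) and Kmt2b by -0.74. Falls were thus found in lists of both the repressing and the opposing system, and 37.2% of all tested genes fell.

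**Figure D5:**
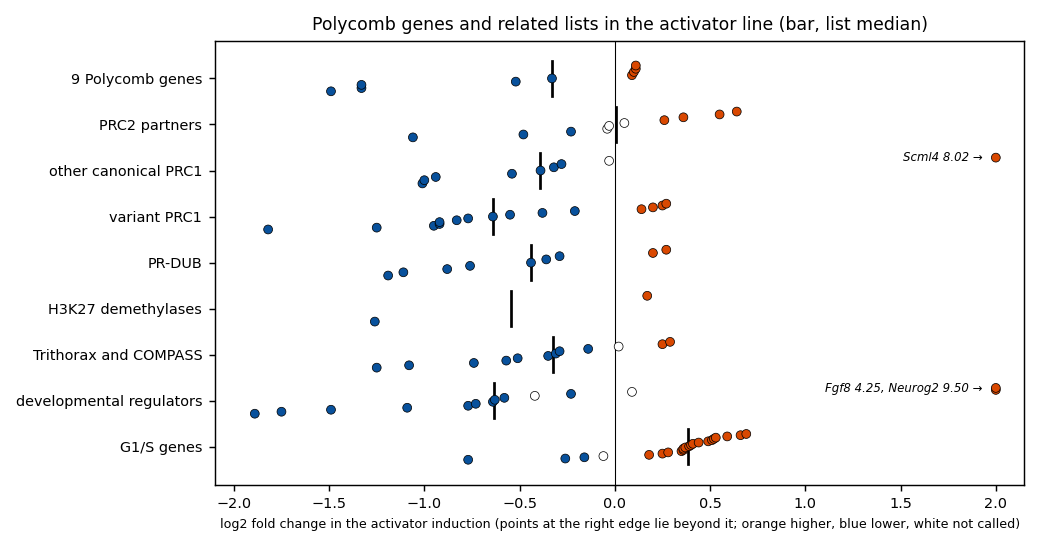
Log2 fold change in the activator induction of every tested gene of the 9 Polycomb genes and of 8 related lists (vertical axis), 1 point per gene, with a bar at each list's median and edge labels for genes beyond the axis. The pair of genes of the Cdkn2a locus is not drawn. Among the lists drawn the medians under TMM scaling run from -0.637 (variant PRC1) to 0.383 (G1/S genes).

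Genes known as Polycomb targets went in several directions. At the Cdkn2a locus, Cdkn2b (encoding the inhibitor p15) fell from 24.62 ± 1.21 to 6.966 ± 1.34 CPM in the activator induction (-1.80, adjusted p = 1.33e-32, edgeR). Cdkn2a, its neighbour, rose from 65.07 ± 0.834 to 88.6 ± 5 CPM (0.45, adjusted p = 1.72e-18), but was -0.29 with mitochondrial scaling. Of 47 developmental regulators that carry the PRC2 mark in many cell types, 14 passed the filter on low counts. Neurog2 and Fgf8 passed it only through the induced activator group, so that they could only be found higher. Of the other 12, 10 fell and 2 were not called, where 37.2% of all tested genes fell. The proneural gene Neurog2 rose from 0 counts to 236 counts over 3 libraries (4.491 ± 0.26 CPM), at least 99.5-fold higher against a floor of 3 counts over the uninduced group, and Fgf8 rose from 5 to 81 counts. The number of the 47 genes with no count in any library of a group was 21 in the induced activator group and 27 to 29 in the others. Under TMM scaling, 18 of 22 genes of the G1/S transition rose and 3 fell, with a median of 0.383. Among all tested genes 38.2% rose and 37.2% fell. Cdc45, with the largest rise of the list, changed by 0.69 and Mcm4 by 0.66, both negative with mitochondrial scaling, and E2f2 by -0.77. The list as a whole was not counted under other scalings.

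In the repressor induction 7 of the 95 tested genes of these 9 related lists were called (7.37%), beside 9.81% of all tested genes. None of the 10 PRC2 partner genes, the 9 other canonical PRC1 genes or the 22 G1/S genes passed the test. Among variant PRC1 genes Bcorl1 (0.22, adjusted p = 0.00144, edgeR) and Pcgf3 (0.12, adjusted p = 0.00542) rose. The Pcgf3 call was lost without repressor induced library 1 (0.0842) and with mitochondrial scaling (0.286). Ogt changed by -0.13 and Setd1b by -0.14. The Ogt call was lost with total-count scaling (0.0735), mitochondrial scaling (0.107) and without repressor uninduced library 2 (0.0522), and the Setd1b call with mitochondrial scaling (0.0934). Cdkn2b fell from 29.16 ± 2.8 to 25.1 ± 1.06 CPM (-0.21, adjusted p = 0.02, edgeR), and the call was lost without repressor uninduced library 1 or 3 or repressor induced library 1 or 2 (adjusted p = 0.0512 to 0.255). Cdkn2a at -0.12 was not called (adjusted p = 0.0549). Of the developmental regulators Lhx2 rose by 0.27 and Gata6 fell by 0.14, calls that were lost without repressor induced library 3 (adjusted p = 0.146 and 0.0754, edgeR). In the control line no gene of these lists was called.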

How the data were processed

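RNA from 18 libraries was measured as gene counts. The authors deposited 1 table of raw counts per gene, and the genome build is mm10 per the submitters' processing notes. Aligner, counter, annotation and strandedness of counting: not given in the sources used here. Of 47937 identifiers, 47310 were found in GENCODE M21, and the other 627 held 0.0423% of counts.

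Groups came from the sample labels. Counts were tested with edgeR 4.0.16 in R 4.3.3 (filterByExpr, TMM library sizes, quasi-likelihood F test with the robust option, 1 coefficient per group, 12 residual degrees of freedom). P-values were adjusted by Benjamini-Hochberg over all 16216 tested genes, with a threshold of 0.05, in 9 comparisons. CPM uses TMM library sizes, and TPM divides by exon length. Intervals are at the 95% level. The script was tested on simulated data in which few genes were changed, as many up as down. That setting could not test the choice of scaling. The counts give a common biological coefficient of variation of 0.0246.

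Alternatives were other scalings, filters, DESeq2 1.42.0, limma-voom 3.58.1, a replicate block, only the groups compared, and leaving out each library. Named genes were the 9 members and, per related list and induction, up to 3 called genes of largest change, with Cdkn2a, Cdkn2b, Kdm6a and Kdm6b always. Pecam1 was added after its values were seen. Some genes these rules select are not reported here. The 3 most alike genes were taken by Pearson correlation of log2 CPM. The members and lists were chosen with earlier results of these data known. Satellite repeats were not analysed here.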

Additional observations from a re-analysis of the deposited data

Results flagged for a closer look

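Differences between the responses of the lines passed the test for most of the 9 Polycomb genes, as log2 differences of induced against uninduced (edgeR quasi-likelihood test, n = 3 libraries a group). The activator response minus the control response was -1.28 for Ezh1 (adjusted p = 4.06e-15), 0.14 for Ezh2 (0.00661), -0.4 for Eed (2.49e-07) and 0.16 for Suz12 (0.000792). It was -1.15 for Cbx2 (1.35e-19), -1.44 for Cbx7 (1.09e-07), -0.55 for Cbx8 (0.000768) and 0.21 for Bmi1 (0.000111). The activator response minus the repressor response, added after the data were seen, was -1.31 for Ezh1 (2.17e-15), -0.3 for Eed (7.33e-05), 0.15 for Suz12 (0.00143), -1.18 for Cbx2 (8.86e-20), -1.98 for Cbx7 (1.78e-12), -0.66 for Cbx8 (5.08e-05) and 0.27 for Bmi1 (1.9e-06). The positive values of Ezh2, Suz12 and Bmi1 turned negative with mitochondrial scaling, and all but Bmi1 against the repressor did so with total-count scaling. The lines were induced for different times and doses, which cannot be told apart from the effector.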

How the results depend on the processing

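In the activator induction, 5 members lower and 4 higher became 9 lower and 0 higher with total-count and with mitochondrial scaling, and 0 were higher with no filter on low counts. With total-count and mitochondrial scaling respectively, values reversed to -0.13 and -0.64 for Ezh2, -0.11 and -0.63 for Suz12, -0.12 and -0.64 for Rnf2 and -0.11 and -0.63 for Bmi1. Activator minus control reversed to -0.1 and -0.54 for Ezh2, -0.08 and -0.52 for Suz12, -0.16 and -0.6 for Rnf2 and -0.03 and -0.47 for Bmi1. Its 3 higher became 0 with either scaling and its 5 lower became 9 with mitochondrial scaling. Activator minus repressor reversed to -0.22 and -0.69 for Ezh2 and -0.1 and -0.57 for Suz12, and with mitochondrial scaling to -0.6 for Rnf2 and -0.46 for Bmi1. Its 2 higher became 4 with upper-quartile scaling and 0 with total-count or mitochondrial scaling, and its 5 lower became 9 with mitochondrial scaling. With mitochondrial scaling the activator induction also reversed to -0.1 for Epop, -0.19 for Rbbp4, -0.57 for Kdm6a (-0.06 with total counts), -0.29 for Cdkn2a, -0.05 for Cdc45 and -0.08 for Mcm4, and the 1 member lower in the repressor line became 0. The 4 members lower in the uninduced activator than the repressor line became 2 with total counts, 1 with DESeq2 and 2 with no filter.

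Leaving out 1 library gave 0 to 1 higher (0 without repressor induced 2) and 1 to 2 lower (2 without repressor induced 1) in the repressor line, 2 to 4 lower in the uninduced activator against control (2 without control uninduced 1 or activator uninduced 2) and 1 to 4 lower against repressor (1 without repressor uninduced 2 or 3, 2 without activator uninduced 1 or 2). Over all alternatives for log2 fold changes of single genes, 2142 values kept direction and call or spread, 55 were weaker, 20 stronger, 48 moved and 29 reversed. The cause was not tested.

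Total genes called fell from 1590 to 701 in the repressor induction and from 442 to 165 in repressor minus control with mitochondrial scaling. In the control induction 75 called became 35 to 49 without any one of 5 libraries. For the uninduced repressor against control, 253 became 164 with total counts, 79 with mitochondrial scaling, 119 with DESeq2, 513 with only the groups compared and 103 to 147 without control uninduced 1 or 2 or repressor uninduced 2 or 3. The share of calls that were higher moved with total-count and mitochondrial scaling from 54.7% to 78.4% and 5.77% in the control induction, from 48.3% to 26.3% and 7.56% in activator minus control, and from 48.7% to 26.7% and 7.25% in activator minus repressor. It moved from 53.1% to 73.4% with total counts in the repressor induction. With mitochondrial scaling it moved from 43.7% to 61.8% in repressor minus control and, for the uninduced activator, from 45.8% to 8.19% against control and from 45.9% to 12.5% against repressor.

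Replicate numbers did not pair the samples: same-numbered libraries correlated with r of -0.034 to 0.033 over 45 pairs, and 19 of 45 matched best with their own number. With the replicate block no call of a member changed in the planned comparisons. In the added comparison Rnf2 became called (adjusted p = 0.0471, edgeR), and in the repressor induction Cdkn2a at -0.11 (0.0453).

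Depth limits Cbx7 most, with 13 to 31 counts in the induced activator libraries.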
